A study of Mus musculus with 6 samples.

Results

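Interferon-stimulated genes, the receptors and transcription factors that switch them on, and the sensors of foreign nucleic acid were followed as a set of 51 genes. They were taken from a list of symbols, and all 51 were found by Ensembl identifier among the 55471 genes of the deposited table. Counts were present for 50 of them, and 44 passed the filter on low counts and could be tested. The cells were 10T1/2, a mouse embryonic fibroblast line grown without any treatment in medium with 10% serum. PolyA RNA from 3 wild-type (WT) libraries was compared with 3 libraries labelled Ranbp2 KO, whose cells were edited with CRISPR/Cas9 at Ranbp2, the gene of a large protein on the cytoplasmic face of the nuclear pore. No further allele, transgene or agent is named for either group. The labels do not say whether the edited cells are a clone or a pool, nor how the cultures were separated, so a p-value here covers only library-to-library spread, which may be technical.

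Interferons are secreted proteins that warn cells of infection. Type I interferon binds IFNAR1 and IFNAR2, and the transcription factor complex ISGF3, which holds STAT2 and IRF9, then binds interferon-stimulated response elements (ISRE) in the promoters of many genes. Type II interferon acts through IFNGR1 and IFNGR2 on genes with gamma-activated sites (GAS). The RNA sensors RIG-I and MDA5 signal through the mitochondrial protein MAVS, and the DNA sensor cGAS through STING. Fibroblasts carry all of these systems and keep a low level of many interferon-stimulated genes without infection.

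Libraries held 32072817 to 46321967 expected counts. Ranbp2 mRNA itself was not lower in the KO-labelled libraries, at 294, 289 and 293 against 219.8, 250.1 and 249 CPM (counts scaled to library size), a log2 difference of 0.28 (SE 0.07, edgeR adjusted p = 0.012). A count per gene does not show an edit inside the transcript, so the libraries are called KO-labelled and all directions are KO-labelled relative to WT. An exact two-sided permutation test of these 6 values gave p = 0.1, the smallest that 3 against 3 allows. Of 13 fibroblast markers 11 reached 1 CPM in a group, and their summed level was 27444 to 34553 CPM (KO-labelled) against 22133 to 25665 CPM (WT), of which Fn1 alone had a mean of 14521 and 5864 CPM. By the edgeR test 5 of these markers rose (Fn1, Col3a1, Pdgfra, Dcn and Lum) and 3 fell (Col1a1, Pdgfrb and Thy1). Lum and Fap stayed below 1 CPM. Thy1 was below 1 CPM in the KO-labelled libraries only, at 0.534 ± 0.216 CPM against 58.3 ± 2.45 CPM (WT). Its log2 difference of -6.76 was the largest of the fibroblast markers tested. Most markers of immune cells, which express many interferon genes strongly, were scarce. The 10 macrophage or myeloid markers summed to at most 8.75 CPM in any library, with 2 (Cd14 and Cd68) at 1 CPM or more and Adgre1 at 0 in every library. Cd14 fell, at 2.70 ± 0.171 CPM (KO-labelled) against 6.04 ± 0.584 CPM (WT), and Lyz2 rose, at 0.780 ± 0.0706 CPM (KO-labelled) against 0.292 ± 0.0491 CPM (WT). The 7 lymphocyte markers summed to at most 0.411 CPM. The 8 dendritic cell markers summed to 110 to 122 CPM (KO-labelled) against 123 to 128 CPM (WT), nearly all from Tcf4 and Bst2, with Siglech, Flt3 and Itgax near 0 and Zbtb46 higher (0.91). Of the epithelial markers Cdh1 rose (1.75), and of the endothelial markers Tek fell (-0.76). The part of these markers in the results was not tested.

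Among the 44 members tested, 24 fell, 2 rose and 18 did not pass. By the same test (edgeR, adjusted p below 0.05), 21.3% of all 15454 genes tested were lower and 17.6% higher, so the share of members that fell, 54.5%, lay above the background and the share that rose, 4.55%, below it. The median log2 difference of the members tested was -0.44 and that of all genes tested 0.01. Called and at least 2-fold lower were 8 members, against 5.73% of genes tested, and at least 2-fold higher was 1, against 4.41%. The groups did not overlap in 31 members (51.4% of genes tested), with the KO-labelled libraries on the lower side in 28 (26.8% of genes tested) and on the higher side in 3 (24.6%). Calls were made from the same values, so groups that do not overlap add no evidence to a call. Of the 44, 37 reached the filter's level in all libraries of both groups, 5 (Ifih1, Oasl2, Mx2, Gbp3 and Gbp7) only in WT libraries, and 2 in some libraries of each. Members that passed through their higher group had more chance to differ, so these counts describe the list and do not test it.

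Lower calls were found at every level of expression. Of 19 members with a mean of 10 CPM or more over all libraries, 11 fell and 1 rose (25.5% of genes at that level were lower), with a median of -0.26. Between 1 and 10 CPM, 9 of 15 fell and 1 rose (19.2% lower), with a median of -0.69, and below 1 CPM, 4 of 10 fell and 0 rose (10.4% lower), with a median of -0.93. Below 1 CPM, Gbp3, Gbp7, Oasl2 and Mx2 reached the filter's level only in WT libraries, as did Ifih1 between 1 and 10 CPM. These members had more chance to differ, so the counts at low levels do not test the list. Oas1a, below 1 CPM, lost its call under most alternatives. The members below 1 CPM had the larger median difference and the larger errors, with a median SE of 0.38 below 1 CPM and 0.08 at 10 CPM or more.

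**Figure D1:**
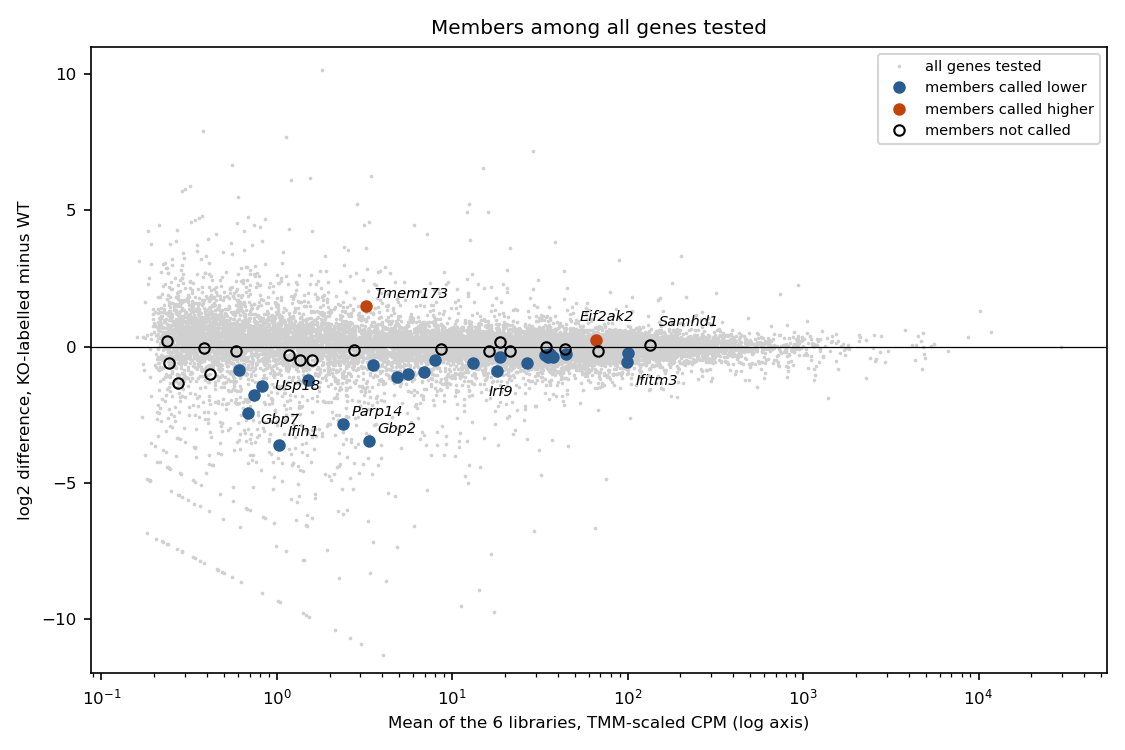
Each point is a gene tested, with its mean CPM over the 6 libraries on a log axis and its log2 difference (KO-labelled minus WT); members are drawn larger and coloured by call. The 24 members called lower spread from below 1 to about 100 CPM, and the largest differences, those of Ifih1 and Gbp2, belong to weakly expressed genes.

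The promoters of these genes were searched for the elements of the type I and type II responses. RefSeq promoters of build GRCm38.p6 (250 bases before to 50 after a start site) were found for 42 members and searched on both strands for the ISRE core (GAAA, any 2 bases, GAAA) and the GAS core (TTC, any 3 bases, GAA). Matches may overlap each other. The ISRE core was present in 18 of 42 members, 42.86%, against 3.99% of all 27025 genes with a promoter, and the GAS core in 15, 35.71%, against 9.55%. Of all genes tested 21.3% were lower and 17.6% higher. Of 16 tested members with an ISRE core, 12 fell, 1 rose and 3 did not pass. Of 21 tested members without it, 9 fell, 0 rose and 12 did not pass. The median differences were -0.44 and -0.40. With a longer core, the same letters followed by CT (0.3% of genes with a promoter), 8 of 9 tested members fell, with a median of -0.69, and without it 13 of 28 fell, with a median of -0.33. These 8 include Gbp2, Gbp3 and Gbp7 of the same cluster, and Gbp3 and Gbp7 reached the filter's level only in WT libraries. They also include Oas1a, whose call was lost under most alternatives. A link between motif and call was not tested. With the GAS core 6 of 14 fell and 1 rose, and without it 15 of 23 fell and 0 rose. A match is a description of the letters and not of a bound site.

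Printed as examples of the element are the promoters of the 6 called members with an ISRE core and the smallest adjusted p. Those of Eif2ak2, which rose, and Isg15, which was not called, were added after their values were seen for contrast. Members with no match (such as Irf9 and Xaf1) or no promoter entry (such as Parp14) had smaller adjusted p than Irf2 and Gbp3. The printed promoters are thus not those of the clearest decreases among all members. The printed promoters lie at chr3:142620413-142620712, plus strand (Gbp2), chr2:62646206-62646505, minus strand (Ifih1), chr3:142530086-142530385, plus strand (Gbp7), chr7:141010695-141010994, minus strand (Ifitm3), chr8:46739495-46739794, plus strand (Irf2), chr3:142559794-142560093, plus strand (Gbp3), chr17:78882523-78882822, minus strand (Eif2ak2) and chr4:156200769-156201068, minus strand (Isg15). Each is written 5′ to 3′ on the gene's strand, with ISRE core matches of either strand in capitals.
Gbp2: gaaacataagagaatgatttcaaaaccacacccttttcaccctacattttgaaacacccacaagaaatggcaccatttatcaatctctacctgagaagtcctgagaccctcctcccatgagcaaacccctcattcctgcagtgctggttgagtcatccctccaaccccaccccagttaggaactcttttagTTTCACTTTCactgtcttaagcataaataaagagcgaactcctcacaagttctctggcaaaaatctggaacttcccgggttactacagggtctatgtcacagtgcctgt
Ifih1: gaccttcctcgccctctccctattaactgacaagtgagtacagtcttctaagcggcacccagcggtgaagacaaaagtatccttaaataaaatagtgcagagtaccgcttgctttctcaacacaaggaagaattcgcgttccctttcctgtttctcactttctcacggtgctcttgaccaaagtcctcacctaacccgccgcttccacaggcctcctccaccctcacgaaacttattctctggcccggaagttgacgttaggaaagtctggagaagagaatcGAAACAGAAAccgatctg
Gbp7: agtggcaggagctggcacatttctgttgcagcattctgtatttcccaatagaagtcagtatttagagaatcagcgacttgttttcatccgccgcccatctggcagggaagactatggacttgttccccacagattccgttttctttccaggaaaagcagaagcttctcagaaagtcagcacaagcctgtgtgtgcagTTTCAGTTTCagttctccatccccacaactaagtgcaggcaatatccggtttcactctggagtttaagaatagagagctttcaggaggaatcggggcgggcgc
Ifitm3: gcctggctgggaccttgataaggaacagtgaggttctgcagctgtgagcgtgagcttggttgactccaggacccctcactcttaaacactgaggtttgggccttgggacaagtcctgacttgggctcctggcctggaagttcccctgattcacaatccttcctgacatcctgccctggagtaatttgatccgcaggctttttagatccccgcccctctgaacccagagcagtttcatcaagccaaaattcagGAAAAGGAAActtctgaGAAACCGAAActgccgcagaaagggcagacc
Irf2: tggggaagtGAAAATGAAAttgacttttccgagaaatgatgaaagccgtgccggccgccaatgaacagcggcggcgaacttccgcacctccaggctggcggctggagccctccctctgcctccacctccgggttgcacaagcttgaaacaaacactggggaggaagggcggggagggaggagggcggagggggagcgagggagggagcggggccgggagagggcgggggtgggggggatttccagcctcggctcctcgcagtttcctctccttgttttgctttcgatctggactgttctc
Gbp3: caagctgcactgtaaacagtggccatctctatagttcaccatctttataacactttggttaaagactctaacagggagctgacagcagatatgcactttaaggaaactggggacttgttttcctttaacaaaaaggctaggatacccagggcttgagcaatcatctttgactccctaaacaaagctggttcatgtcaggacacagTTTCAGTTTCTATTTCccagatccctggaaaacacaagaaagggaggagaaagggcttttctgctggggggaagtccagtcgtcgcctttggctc
Eif2ak2: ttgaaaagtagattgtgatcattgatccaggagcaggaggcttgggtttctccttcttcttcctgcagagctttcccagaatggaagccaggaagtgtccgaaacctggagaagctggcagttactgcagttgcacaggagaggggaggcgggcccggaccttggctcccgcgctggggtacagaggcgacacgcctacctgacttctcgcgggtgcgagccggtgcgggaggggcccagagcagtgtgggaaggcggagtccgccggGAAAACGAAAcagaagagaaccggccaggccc
Isg15: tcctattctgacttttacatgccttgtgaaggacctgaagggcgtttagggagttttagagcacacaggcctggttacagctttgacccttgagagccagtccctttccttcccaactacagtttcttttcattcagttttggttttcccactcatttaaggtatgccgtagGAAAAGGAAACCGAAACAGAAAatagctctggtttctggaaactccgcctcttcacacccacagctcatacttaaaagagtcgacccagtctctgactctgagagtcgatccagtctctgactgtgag
The matches of Gbp2, Gbp7 and Gbp3 lie close together upstream, with first bases 59, 53 and 45 bases before the start site, and Gbp3 has an overlapping match 39 bases before it. In Ifih1 the first base lies 33 and in Eif2ak2 19 bases after the start site. Isg15 has 3 overlapping matches, more than any other member, and was not called.

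**Figure D2:**
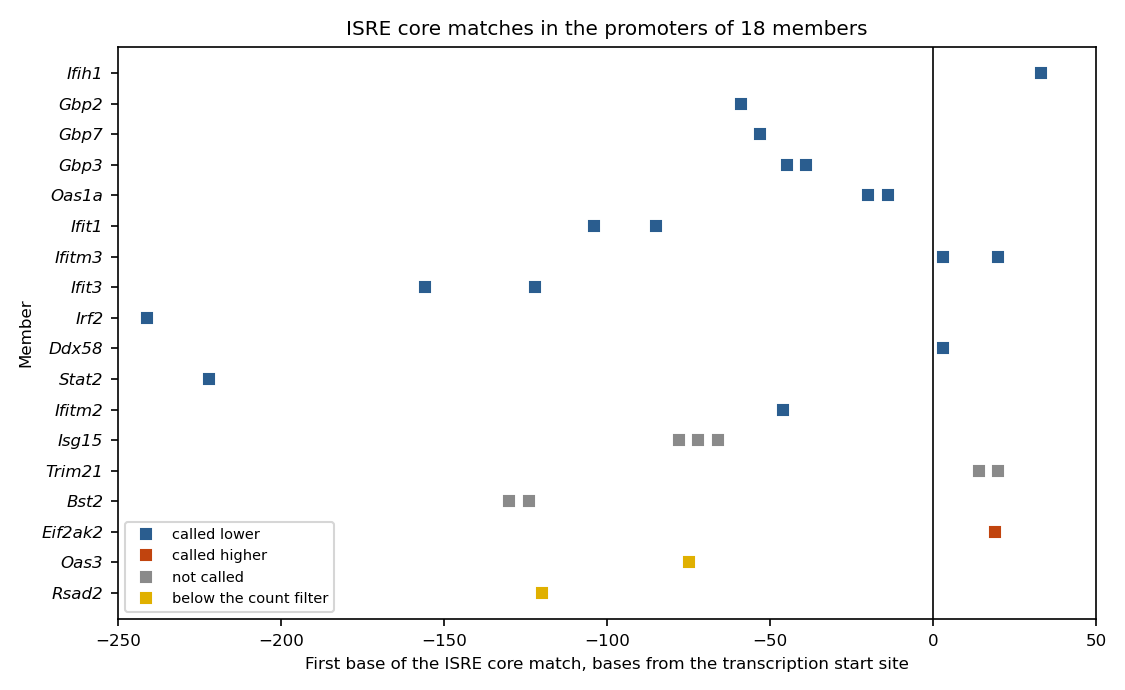
Each square is an ISRE core match, placed by the distance of its first base from the start site (vertical line) and coloured by the call of the member; members are ordered by log2 difference. Of 18 members with a match, 12 were called lower, and matches lie on both sides of the start site in members that fell.

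Of 4 interferon receptor chains 2 fell, by small amounts, beside 21.3% of all genes tested that were lower. Both chains of the type II receptor passed: Ifngr1, the ligand-binding chain, stood at 31.4, 31.1 and 29.0 CPM (KO-labelled) against 37.7, 39.3 and 42.6 CPM (WT), a log2 difference of -0.39 (SE 0.08, edgeR adjusted p = 0.00292), and Ifngr2, the signalling chain, at 33.6, 32.5 and 33.2 CPM (KO-labelled) against 39.2, 38.3 and 40.9 CPM (WT), a difference of -0.26 (SE 0.07, edgeR adjusted p = 0.0126). In both genes every KO-labelled library was below every WT library, although the call for Ifngr2 was lost without KO-labelled library 2 (difference -0.25, edgeR adjusted p = 0.0543, and 0.00921 to 0.0543 over the alternatives). The type I receptor chains did not pass: Ifnar1 was at 61.1, 66.1 and 65.2 CPM (KO-labelled) against 72.2, 71.6 and 70.4 CPM (WT) (-0.15, SE 0.07, edgeR adjusted p = 0.0881, 95% interval -0.28 to -0.03) and Ifnar2 at 34.5, 33.2 and 33.5 CPM (KO-labelled) against 35.6, 32.1 and 35.7 CPM (WT) (-0.03, SE 0.07, edgeR adjusted p = 0.767, interval -0.17 to 0.11). Ifnar1 values did not overlap between the groups, and those of Ifnar2 did.

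Among the transcription factors, Irf9, the DNA-binding subunit of ISGF3, had the largest difference of those that passed. It stood at 13.4, 11.8 and 12.6 CPM (KO-labelled) against 24.8, 23.3 and 22.5 CPM (WT), a difference of -0.90 (SE 0.08, edgeR adjusted p = 2.27e-05). Stat2, its partner in the complex, was at 40.7, 38.9 and 40.8 CPM (KO-labelled) against 52.6, 48.4 and 45.5 CPM (WT), a difference of -0.28 (SE 0.08, edgeR adjusted p = 0.0149), and Irf2, which competes with activating factors at the same elements, at 16.4, 16.4 and 16.1 CPM (KO-labelled) against 21.4, 20.2 and 22.1 CPM (WT), -0.38 (edgeR adjusted p = 0.00242). The groups did not overlap in any of these 3 genes, and the 3 KO-labelled Irf2 values lay close together. Without KO-labelled library 2 the call for Stat2 was lost (difference -0.26, edgeR adjusted p = 0.0653, and 0.00296 to 0.0653 over the alternatives).

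Irf3, the factor that sensors activate first, was at 21.5, 19.4 and 20.1 CPM (KO-labelled) against 24.8, 21.9 and 20.8 CPM (WT) and did not pass (-0.15, SE 0.09, edgeR adjusted p = 0.205, interval -0.32 to 0.02). Irf1, which drives genes of the type II response, did not pass either, at 15.2 ± 0.775 CPM (KO-labelled) against 17.1 ± 1.63 CPM (WT) (SD, n = 3), a difference of -0.18 and an interval of -0.35 to 0.00. Irf7, the amplifier of type I interferon production, was weakly expressed, at 1.13 ± 0.177 CPM (KO-labelled) against 1.58 ± 0.0747 CPM (WT), with groups that did not overlap but a difference of -0.48 (SE 0.21, edgeR adjusted p = 0.102). Irf7 shares 45 exon bases with the abundant gene Phrf1 on the opposite strand, so some of its reads are uncertain. Irf5, which acts in immune cells, was measured at no more than 0.458 CPM in any library, and its exons share 411 bases with the abundant gene Tnpo3 on the opposite strand, so its reads are uncertain.

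Of 4 RNA sensors and adaptors 3 fell, by very different amounts, beside 21.3% of all genes tested that were lower. Ifih1, the gene of MDA5, which recognises long duplex RNA, stood at 0.104, 0.257 and 0.0958 CPM (KO-labelled) against 1.93, 1.74 and 2.09 CPM (WT), from 4, 10 and 3 counts against 80, 80 and 88, and the difference was -3.60 (SE 0.35, edgeR adjusted p = 4.26e-05). Ddx58, the gene of RIG-I, which recognises short RNA with a triphosphate end, stood at 30.2, 29.0 and 30.9 CPM (KO-labelled) against 38.3, 34.9 and 38.4 CPM (WT), a difference of -0.31 (SE 0.07, edgeR adjusted p = 0.00731). Mavs, the adaptor on the mitochondrial outer membrane through which both signal, was at 20.1, 21.0 and 22.6 CPM (KO-labelled) against 36.0, 32.1 and 29.2 CPM (WT), a difference of -0.61 (SE 0.09, edgeR adjusted p = 5.91e-04). In all 3 genes the groups were apart, and the 95% interval of Ifih1 ran from -4.29 to -2.91. Ifih1 reached the filter's level throughout the WT group only, which gave it more chance to differ. Dhx58, the gene of LGP2, which modulates both sensors, stood at 1.04 ± 0.328 CPM (KO-labelled) against 1.30 ± 0.0791 CPM (WT) and did not pass (-0.32, SE 0.27, edgeR adjusted p = 0.375), and shares 141 exon bases with an antisense gene.

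Of the 2 members tested that act in the cGAS pathway, 1 rose and 0 fell, while Aim2, a DNA sensor outside the set, fell (-2.51). Of all genes tested 17.6% were higher and 21.3% lower. Aim2 reached the filter's level throughout the WT group only, which gave it more chance to differ. Tmem173, the gene of STING, the adaptor of the endoplasmic reticulum, rose: it stood at 5.22, 4.03 and 5.05 CPM (KO-labelled) against 2.39, 1.44 and 1.31 CPM (WT), a difference of 1.48 (SE 0.24, edgeR adjusted p = 9.40e-04), and was the only member at least 2-fold higher. WT library 1 was the highest of its group and still below every KO-labelled library. Mb21d1, the gene of cGAS, which makes the cyclic dinucleotide that activates STING, stood at 19.8, 20.1 and 19.2 CPM (KO-labelled) against 16.1, 17.8 and 18.7 CPM (WT). Its groups did not overlap, but the difference of 0.17 (SE 0.08, edgeR unadjusted p = 0.0605, edgeR adjusted p = 0.121) did not pass. Its interval of 0.01 to 0.32 assumes a normal distribution and is narrower than the test implies. The median gene of its chromosome, 9, stood at -0.17, and relative to the other genes there Mb21d1 stood at 0.34, which was not tested. Zbp1, a sensor of Z-form nucleic acid that starts cell death, was below the filter, with 15 counts over the KO-labelled and 25 over the WT libraries.

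**Figure D3:**
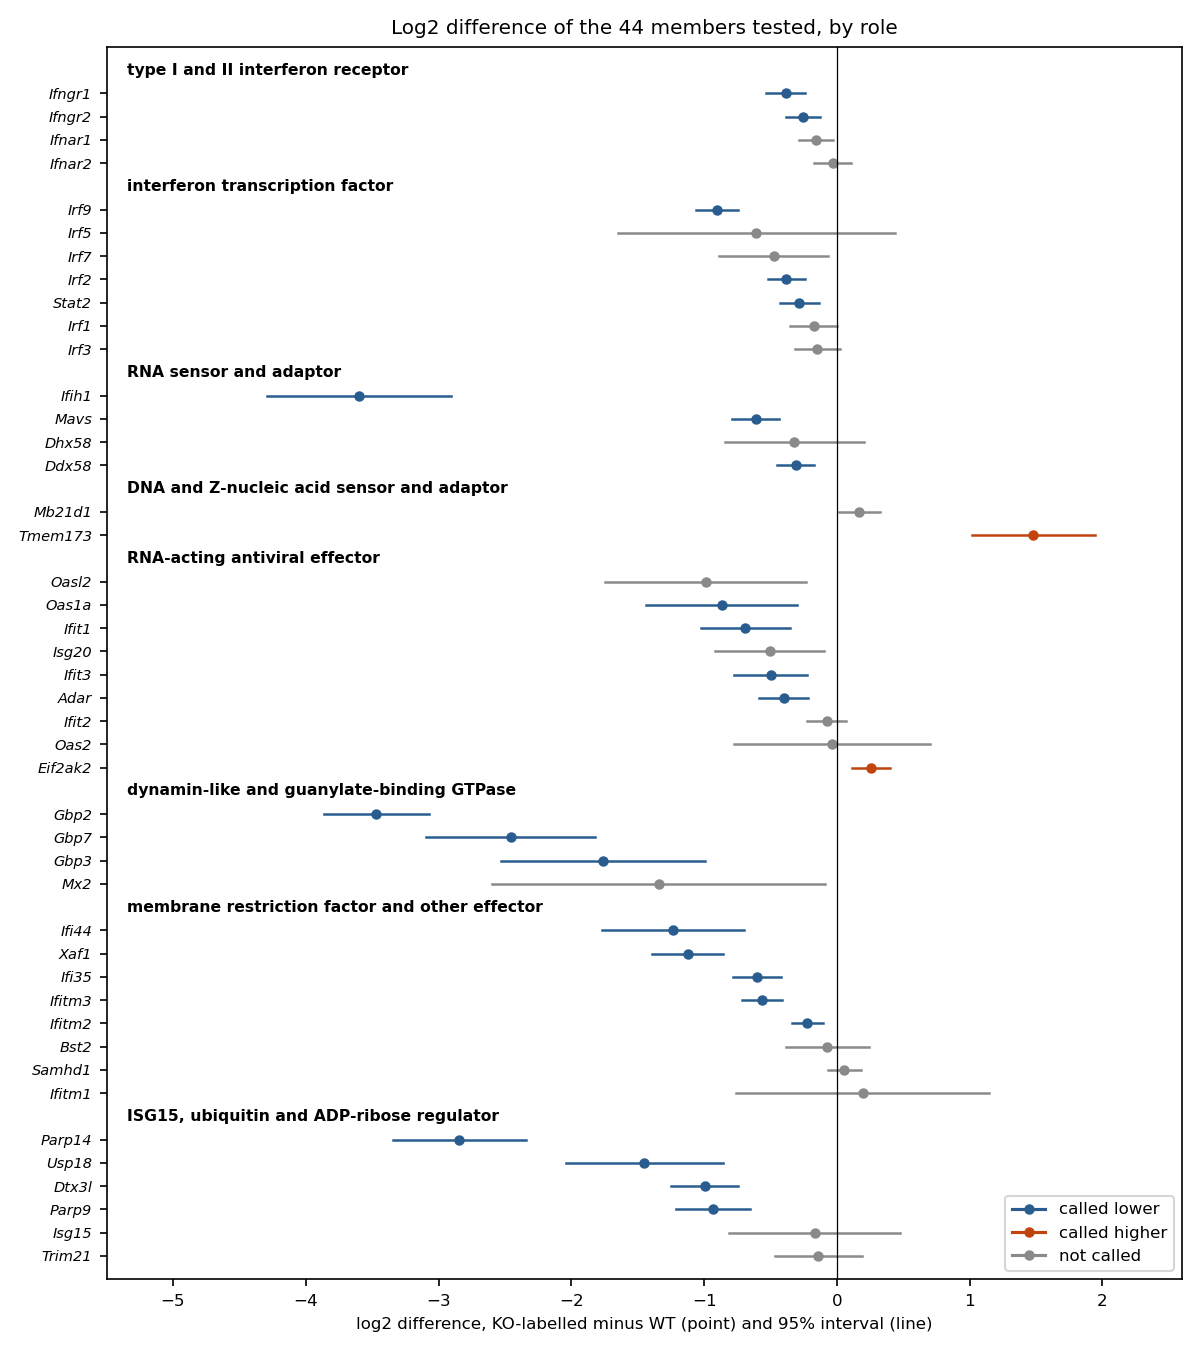
Points give the log2 difference (KO-labelled minus WT) of each of the 44 members tested and lines the 95% interval, grouped by role and coloured by call. Most points lie left of 0, and Tmem173 and Eif2ak2 are the members called higher.

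The IFIT proteins, which bind viral RNA that lacks the cap methylation of host mRNA, were not uniform. Ifit1 stood at 2.38, 2.59 and 3.13 CPM (KO-labelled) against 3.69, 4.48 and 4.85 CPM (WT), a difference of -0.69 (SE 0.17, edgeR adjusted p = 0.0107). Ifit3, its stabilising partner, was at 5.35, 7.09 and 7.44 CPM (KO-labelled) against 8.65, 9.32 and 10.1 CPM (WT), a difference of -0.50 (SE 0.14, edgeR adjusted p = 0.0185). Ifit2, per length the most abundant of the 3, was at 42.1, 44.5 and 42.4 CPM (KO-labelled) against 41.9, 45.9 and 48.0 CPM (WT) with overlapping groups, a difference of -0.08 and an interval of -0.22 to 0.07. The genes lie side by side on chromosome 19, with 7.1 kb between Ifit2 and Ifit3 and 52.1 kb between Ifit3 and Ifit1. The median gene of that chromosome stood at -0.19, and relative to the other genes there Ifit1, Ifit3 and Ifit2 stood at -0.50, -0.31 and 0.11. Ifit3 has a near copy: 51.24% of its 50-base stretches also occur in Ifit3b, which was not called (0.28, edgeR adjusted p = 0.319), so the split of reads between them is uncertain. The Ifit3 call was lost without WT library 2 (difference -0.50, edgeR adjusted p = 0.055, and 5.80e-04 to 0.055 over the alternatives).

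The oligoadenylate synthetases, which make the activator of the RNA-degrading enzyme RNase L, were near the detection limit. Oas1a passed at 0.392, 0.385 and 0.511 CPM (KO-labelled) against 0.916, 0.718 and 0.713 CPM (WT), a difference of -0.87 (SE 0.29, edgeR adjusted p = 0.0394). Its groups did not overlap, but 57.57% of its 50-base stretches occur in Oas1g or Oas1b. Its call was lost in 9 of the 11 alternatives that tested it, each library left out included (adjusted p 0.0399 to 0.13 over the alternatives). Oasl2, a relative, was at 0.277 ± 0.0889 CPM (KO-labelled) against 0.554 ± 0.154 CPM (WT), and did not pass (-0.99, SE 0.39, edgeR adjusted p = 0.0693). Oas2 was at 0.379 ± 0.0939 CPM (KO-labelled) against 0.389 ± 0.123 CPM (WT) and overlapped between the groups, with an interval of -0.77 to 0.70. Oas3 and Oasl1 held 5 and 3 counts over the KO-labelled libraries and 1 and 0 over the WT libraries.

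Eif2ak2, the gene of PKR, the kinase that stops translation when it binds duplex RNA, was 1 of the 2 members that rose. It stood at 75.0, 73.7 and 68.4 CPM (KO-labelled) against 57.3, 59.7 and 64.5 CPM (WT), a difference of 0.26 (SE 0.07, edgeR adjusted p = 0.0204), and the groups did not overlap. Eif2ak2 lies on chromosome 17, where the median gene was 0.27 higher, and relative to that median its difference was -0.02. Its call was lost without KO-labelled library 1 or 2 or without WT library 1 or 2 (adjusted p = 0.0575 to 0.0934, and 0.00813 to 0.0934 over the alternatives). Adar, which edits adenosine in duplex RNA and keeps it from the sensors, fell: it stood at 29.1, 32.6 and 35.0 CPM (KO-labelled) against 45.6, 43.7 and 38.3 CPM (WT), a difference of -0.40 (SE 0.09, edgeR adjusted p = 0.00808). Isg20, an exonuclease, was lower in every KO-labelled library but did not pass, at 1.31 ± 0.250 CPM (KO-labelled) against 1.85 ± 0.0712 CPM (WT) (-0.51, SE 0.21, edgeR adjusted p = 0.0816).

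The guanylate-binding proteins, GTPases that attack the membranes of intracellular pathogens, had 3 members in the set, and these 3 fell. Of all genes tested 21.3% were lower, and Gbp3 and Gbp7 reached the filter's level throughout the WT group only. Of 5 further guanylate-binding genes, Gbp9 fell (-4.89, SE 0.75, edgeR adjusted p = 7.43e-04), and Gbp4, Gbp5, Gbp6 and Gbp10 were below the filter. Gbp9 held 1, 0 and 0 counts (KO-labelled) against 18, 15 and 14 (WT). It reached the filter's level only in WT libraries, so it had more chance to differ and the size of its difference is uncertain. Gbp2 stood at 0.548, 0.539 and 0.575 CPM (KO-labelled) against 5.78, 5.20 and 7.49 CPM (WT), a difference of -3.47 (SE 0.20, edgeR adjusted p = 1.55e-06). Gbp7 was at 0.235, 0.257 and 0.128 CPM (KO-labelled) against 1.28, 1.18 and 1.05 CPM (WT), a difference of -2.46 (SE 0.32, edgeR adjusted p = 2.81e-04), and Gbp3 at 0.131, 0.437 and 0.447 CPM (KO-labelled) against 1.08, 1.11 and 1.24 CPM (WT), -1.76 (SE 0.39, edgeR adjusted p = 0.00594). In each gene the lowest WT library was more than 2-fold above the highest KO-labelled library. The 3 genes lie in 1 cluster on chromosome 3, with 9.9 kb between Gbp7 and Gbp3 and 47.4 kb between Gbp3 and Gbp2. The median gene of that chromosome stood at 0.01. Of the 50-base stretches of Gbp7, 12.74% also occur in Gbp3, Gbp11 or Gm43802, a processed pseudogene that shares 637 exon bases with it.

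Mx1 and Mx2, dynamin-like GTPases that block virus particles, were almost silent. Mx1 held 4.08 expected counts over the WT group and 0 over the KO-labelled group. Mx2, which the annotation gives as a polymorphic pseudogene, was at 0.0783, 0.0514 and 0.351 CPM (KO-labelled) against 0.313, 0.283 and 0.571 CPM (WT) and did not pass (-1.34, SE 0.64, edgeR adjusted p = 0.126). KO-labelled library 3 was above 2 WT libraries, and without it Mx2 was called lower (difference -2.53, edgeR adjusted p = 0.0164, and 0.0164 to 0.33 over the alternatives).

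**Figure D4:**
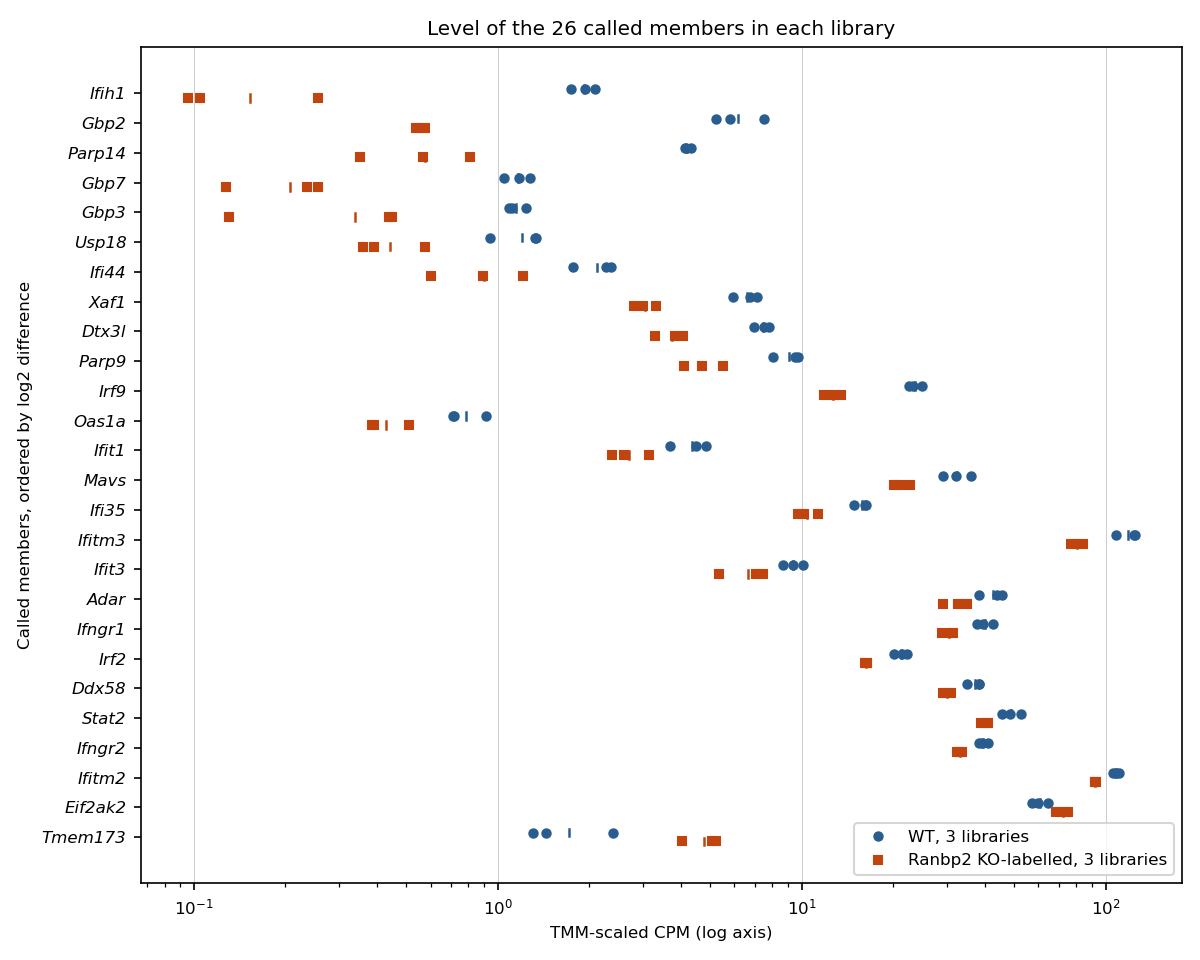
Circles are the 3 WT and squares the 3 KO-labelled libraries, in CPM on a log axis, for the 26 members called, and short vertical bars are group means. In every member shown the groups do not overlap, but the members were called from these same values, so the separation adds no evidence. Of all genes tested, 51.4% had groups that did not overlap. The widest gaps are those of Ifih1, Gbp2 and Parp14 at the top, and Eif2ak2 and Tmem173 at the bottom are the members with higher KO-labelled values.

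The interferon-induced transmembrane proteins, which hinder fusion of viruses with the cell, included the members with the highest level per length. Ifitm3 fell: it stood at 84.1, 76.5 and 80.3 CPM (KO-labelled) against 124, 124 and 108 CPM (WT), a difference of -0.56 (SE 0.08, edgeR adjusted p = 3.51e-04). Ifitm2 was at 91.8, 92.3 and 93.0 CPM (KO-labelled) against 110.2, 105 and 108 CPM (WT), a smaller difference of -0.22 (SE 0.06, edgeR adjusted p = 0.0145), and 48.51% of its 50-base stretches occur in other annotated genes. Ifitm1, between them on chromosome 7, stood at no more than 0.308 CPM and did not pass (interval -0.76 to 1.15). The Ifitm2 groups did not overlap, yet its call was lost without KO-labelled library 2 or 3 or without WT library 2 (adjusted p = 0.0522 to 0.0555, and 0.00697 to 0.0596 over the alternatives).

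Other effectors split between clear decreases and no call. Xaf1, a promoter of cell death, was at 2.79, 3.00 and 3.32 CPM (KO-labelled) against 5.95, 7.14 and 6.75 CPM (WT), a difference of -1.12 (SE 0.14, edgeR adjusted p = 1.79e-04). Ifi44 was at 0.601, 1.21 and 0.895 CPM (KO-labelled) against 1.76, 2.26 and 2.35 CPM (WT), a difference of -1.24 (SE 0.27, edgeR adjusted p = 0.00582), and Ifi35 at 9.74, 10.1 and 11.3 CPM (KO-labelled) against 16.3, 16.1 and 14.8 CPM (WT), -0.60 (SE 0.09, edgeR adjusted p = 7.29e-04). None of these 3 genes had overlapping groups. Samhd1, the enzyme that lowers the supply of deoxynucleotides and thereby limits retroviruses, did not pass: it stood at 139, 140.0 and 132 CPM (KO-labelled) against 134, 129 and 132 CPM (WT), with an interval of -0.06 to 0.18. Bst2, the gene of tetherin, which holds budding virus at the cell surface, was at 10.1, 6.63 and 8.63 CPM (KO-labelled) against 9.59, 9.34 and 7.73 CPM (WT), with overlapping groups and an interval of -0.38 to 0.24. Rsad2, the gene of viperin, had 5 counts over the KO-labelled and 1 over the WT libraries.

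Of 6 tested genes of ISG15, ubiquitin and ADP-ribose 4 fell, beside 21.3% of all genes tested that were lower. Parp14, a mono-ADP-ribosyltransferase, stood at 0.809, 0.565 and 0.351 CPM (KO-labelled) against 4.31, 4.16 and 4.14 CPM (WT), a difference of -2.84 (SE 0.25, edgeR adjusted p = 2.27e-05). Dtx3l, a ubiquitin ligase, was at 3.29, 4.06 and 3.83 CPM (KO-labelled) against 6.94, 7.53 and 7.80 CPM (WT), a difference of -0.99 (SE 0.13, edgeR adjusted p = 2.57e-04), and Parp9, with which it forms a complex, at 5.51, 4.08 and 4.70 CPM (KO-labelled) against 9.52, 8.01 and 9.72 CPM (WT), -0.93 (SE 0.14, edgeR adjusted p = 6.94e-04). The groups were apart in all 3 genes, and the partners Dtx3l and Parp9 had nearly the same difference. Dtx3l and Parp9 lie on chromosome 16, where their exons overlap over 458 bases on opposite strands. How the counting treated strand is not given, so their reads may be shared. Parp14 lies 55.0 kb from Dtx3l.

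Usp18, the protease that removes ISG15 and also restrains IFNAR2, fell: it stood at 0.392, 0.360 and 0.575 CPM (KO-labelled) against 0.940, 1.33 and 1.33 CPM (WT), a difference of -1.45 (SE 0.30, edgeR adjusted p = 0.0041). Isg15, the ubiquitin-like modifier itself, was scarce, at 0.574, 0.514 and 0.575 CPM (KO-labelled) against 0.627, 0.414 and 0.832 CPM (WT), with overlapping groups and an interval of -0.81 to 0.48. Trim21, a ubiquitin ligase that is also a receptor for antibody in the cytosol, was at 2.63 ± 0.225 CPM (KO-labelled) against 2.89 ± 0.357 CPM (WT) and did not pass (-0.14, SE 0.17, edgeR adjusted p = 0.542). Irf8, a factor of myeloid cells, had 1 count over the KO-labelled and 0 over the WT libraries.

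Levels of different members can be compared only per length. In WT libraries, Ifitm3 (175 CPM per kb of merged exons) and Ifitm2 (165) were the highest, followed at a distance by Samhd1 (14.4), Ifngr1 (14.0), Ifnar1 (12.0), Eif2ak2 (11.8) and Ifit2 (11.5). In KO-labelled libraries the order of the first pair was reversed, with Ifitm2 at 141 and Ifitm3 at 118 CPM per kb. Ifih1 was at 0.235 CPM per kb in WT libraries, against 5.27 for Ddx58 and 9.70 for Mavs. The merged exon length differs from the length RSEM used, so these levels are approximate.

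The wider pathway was read from 5 lists of 147 further genes, of which 103 were tested, with 36 lower and 18 higher, 35.0% and 17.5%, beside 21.3% and 17.6% of all genes tested, and a median of -0.15. Only 11 were called higher without KO-labelled library 2, without WT library 1 or without WT library 2. No interferon gene passed the filter: 15 of 21 had no count in any library, Ifnb1 and Ifng among them, and the highest group mean of the others was 0.0391 CPM, for Ifne. Of 16 kinases, STATs and SOCS feedback genes, 7 fell and 3 rose, 43.8% and 18.8%, so the share that rose was near the background. Stat3, the main STAT of the IL-6 family, stood at 71.1 ± 4.33 CPM (KO-labelled) against 159.6 ± 16.3 CPM (WT) (-1.17, SE 0.09, edgeR adjusted p = 7.13e-06), and Socs3, its feedback inhibitor, at 12.9 ± 0.250 CPM (KO-labelled) against 24.2 ± 3.13 CPM (WT) (-0.91, SE 0.10, edgeR adjusted p = 8.10e-05). Ptpn6 (1.66) and Socs2 (0.32) rose and Ptpn1 (-0.40), a phosphatase of JAK kinases, fell. Ptpn11, the gene of the phosphatase SHP2, had the highest CPM of the list and did not pass (-0.21, SE 0.09, edgeR adjusted p = 0.0857).

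The list of Toll-like receptors and kinases, which also held other sensors and adaptors, had 18 genes tested, 4 lower and 3 higher. These shares, 22.2% and 16.7%, lay near those of all genes for the list as a whole. Tlr3, the receptor for duplex RNA in endosomes, fell, at 5.28 ± 0.247 CPM (KO-labelled) against 8.77 ± 0.432 CPM (WT) (-0.73, SE 0.11, edgeR adjusted p = 5.28e-04), and Myd88, the adaptor of most other Toll-like receptors, by 0.75 on the log2 scale. Tlr2 and Tlr4, receptors of bacterial lipoprotein and lipopolysaccharide, rose by 1.32 and 0.49. Tlr7 rose too, at 0.490 ± 0.0927 CPM (KO-labelled) against 0.110 ± 0.0532 CPM (WT) (2.15, SE 0.44, edgeR adjusted p = 0.00397). It held 21, 21 and 12 counts (KO-labelled) against 7, 3 and 4 (WT) and reached the filter's level only in KO-labelled libraries. All 3 genes of the list that rose were thus Toll-like receptors. Aim2, which starts inflammasomes, stood at 0.236 ± 0.0815 CPM (KO-labelled) against 1.34 ± 0.0394 CPM (WT) (-2.51), and Zcchc3 fell as well (-0.83). Aim2 reached the filter's level throughout the WT group only, so Aim2 and Tlr7 had more chance to differ. Tbk1, the kinase shared by MAVS and STING, had the highest CPM of the list and did not pass (0.06, SE 0.07, edgeR adjusted p = 0.509).

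Further interferon-stimulated genes gave 21 lower, 8 higher and 22 not called of 51 tested, with a median of -0.31. The shares lower and higher were 41.2% and 15.7%, beside 21.3% and 17.6% of all genes tested, so the share that rose was near the background. Another 17 of the 68 listed were below the filter, among them Cxcl9, Cxcl10 and Cxcl11. The genes with the smallest adjusted p were all lower: Phf11d (-1.65), Pml (-0.75), the gene of the protein that builds PML nuclear bodies, Sp100 (-2.70), another component of those bodies, Lgals3bp (-0.77), Helz2 (-0.82) and Trim30a (-2.89). Their edgeR adjusted p-values lay between 1.10e-04 and 1.74e-04. Sp100 and Trim30a reached the filter's level throughout the WT group only, which gave them more chance to differ. Zc3hav1, the gene of the antiviral protein ZAP, had the highest CPM of the list and rose, by 0.29 (SE 0.08, edgeR adjusted p = 0.0173). Of 18 genes of nucleic acid turnover and RNA helicases 4 were lower and 4 higher, 22.2% each and near the shares of all genes, with a median of 0.07. Trex1, the exonuclease that clears cytosolic DNA, fell, at 3.96 ± 0.0873 CPM (KO-labelled) against 6.02 ± 0.389 CPM (WT) (-0.60, SE 0.12, edgeR adjusted p = 0.00352), while Prkra, an activator of PKR, and Ddx41 fell by 0.36 and 0.49. Ddx21 also fell (-0.28), and Dnase2a, the lysosomal nuclease, and Dhx36 rose (0.50 and 0.25). Ddx3x had the highest CPM of that list and did not pass (-0.06).

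**Figure D5:**
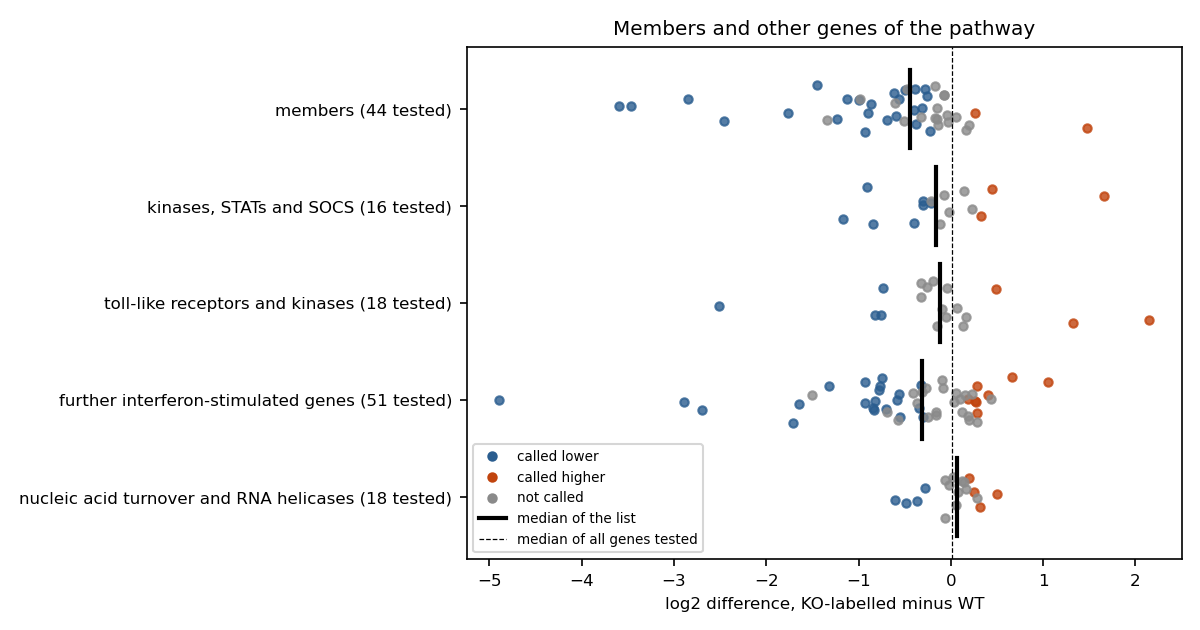
Points are log2 differences (KO-labelled minus WT) of the genes tested in each list, coloured by call and spread vertically for legibility; thick bars are list medians and the dashed line is the median of all genes tested. The members and the further interferon-stimulated genes lie mostly left of the dashed line, with medians of -0.44 and -0.31, and the helicases and nucleases around it.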

How the data were processed

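The deposited table holds RSEM expected counts per Ensembl gene, 1 column per library; the authors used cutadapt, RSEM and build GRCm38, per the submitters' processing notes. Not given in the sources used here: tool versions, the aligner, the strand option. Of the deposited values 17.9% are not whole, since RSEM divides ambiguous reads. Symbols, positions (GRCm38) and merged exon lengths came from GENCODE M21, which left 241 identifiers unmatched.

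Expected counts were rounded, filtered with filterByExpr (minimum count 10, minimum total 15), scaled with TMM over the genes kept and compared by the quasi-likelihood test of edgeR (version 4.0.16, under R 4.3.3) in a model of group alone, with Benjamini-Hochberg adjustment over 15454 genes. Genes with an adjusted p below 0.05 were called. The SE of a log2 difference (positive where KO-labelled is higher) comes from the F statistic. The 95% intervals assume a normal distribution, so with so few libraries they are narrower than the test implies. Other errors are SD of 3 libraries. The test was checked on simulated counts. Alternatives were a DESeq2 Wald test (DESeq2 1.42.0), other scalings and filters, a replicate block, leaving out each library, and subtraction of chromosome medians. Members and lists were chosen with earlier results of these data known. Values in every library are given for called members of at least 1 CPM and uncalled members of at least 20 CPM in a group, and for a few others; of each further list, the 6 smallest adjusted p and the most abundant gene are named, except a gene that is not reported here. Copies were sought as 50-base stretches shared with transcripts of other genes. Libraries of a group differed by more than sampling noise and were counted separately.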

Additional observations from a re-analysis of the deposited data

How the results depend on the processing

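Among the members, 24 were called lower, and 20 to 24 were under the alternatives. Without a library, 20 to 23 were called lower, of which 20 to 23 were among the 24, and Mx2 was the only member gained, without KO-labelled library 3. With 2 members called higher, 1 was left with the replicate block, and 1 to 2 without a library. The median of the members, -0.44, was -0.37 under the stricter filter (1 CPM or more throughout a group), which left 36 members, and -0.46 to -0.40 without a library. Genes of the pathway lists called higher, 18 in all, numbered 11 to 16 without a library. A longer ISRE core, followed by CT, was found in 9 members in place of 18, a subset by construction. Signs reversed for uncalled members when a library was left out, over ranges of -0.23 to 0.24 (Oas2, positive without KO-labelled library 2 or WT library 1), -0.22 to 0.077 (Bst2, positive without KO-labelled library 2), -0.16 to 0.41 (Ifitm1, negative without WT library 3) and -0.40 to 0.094 (Isg15, positive without WT library 3). Relative to the chromosome median, Eif2ak2 stood at -0.017 and was the only called member to change sign. Another 9 members moved by at least their SE. The same replicate numbers did not deviate together (correlations of 0.02, -0.08 and -0.03), so the replicate block, which lost Oas1a, Eif2ak2 and Ifitm2, says nothing of pairing. No library correlated best with the library of its own number in the other group. The median of all genes was at most 0.07 under any alternative. Depth limits members below 1 CPM, where 3 counts correspond to 0.0653 to 0.0958 CPM per library.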

Other observations

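Trim25, the ubiquitin ligase that activates RIG-I, had 0 counts in all 6 libraries and is named here after the counts were seen. Of its neighbours on chromosome 11, Gm525 also had 0 counts in all 6 libraries. Coil stood at 10.1 ± 0.857 CPM (KO-labelled) against 9.50 ± 0.470 CPM (WT), Scpep1 at 196 ± 3.37 CPM (KO-labelled) against 205 ± 9.10 CPM (WT), Dgke at 4.96 ± 0.472 CPM (KO-labelled) against 6.41 ± 0.304 CPM (WT) and Elobl at 0.821 ± 0.312 CPM (KO-labelled) against 0.333 ± 0.0631 CPM (WT) (SD, n = 3). By the edgeR test Dgke fell (adjusted p = 0.0386) and Elobl rose (adjusted p = 0.0213). A count of 0 allows up to 3 counts per library, 0.0653 to 0.0958 CPM.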
